A study of Mus musculus with 18 samples.

Results

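The Kruppel-like factors (KLF) are transcription factors whose C-terminal zinc fingers bind GC-rich and CACCC-type sequences, and 10 of their genes were described in the mouse kidney: Klf2, Klf3, Klf4, Klf5, Klf6, Klf9, Klf10, Klf11, Klf13 and Klf15. They were found by gene name among 32675 genes of the deposited table. The 10 genes were chosen by their measured values in comparisons of these same mice, so their levels, fold changes and calls are given as a description, and a call of a member is not independent evidence of its change. Right kidneys of wild-type male C57BL/6 mice, labelled 6 weeks of age, gave the bulk RNA libraries, 1 per mouse, from 3 groups of 6 mice. The paper's methods give this age for the mice at arrival, before 7 days of acclimatization and 2 weeks of defeat. Mice of the Ctrl group were not defeated, and the paper states that they were handled daily but mentions no injection of them. Mice of the PBS group underwent chronic social defeat stress (CSDS), with a daily bout of 10 min beside an aggressive CD-1 mouse over 2 weeks, and were injected daily with phosphate-buffered saline. Mice of the FLX group underwent the same CSDS and were injected daily with the antidepressant fluoxetine at 10 mg per kg. No undefeated group received fluoxetine, and so the effect of the drug was measured in defeated mice only. Comparisons with Ctrl cannot tell defeat apart from the daily injections.

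Several KLF genes are well known in the kidney and in the stress response. Klf9 and Klf15 are induced by glucocorticoid hormones, and Klf9, Klf10 and Klf15 follow the circadian clock. Klf2 and Klf4 are induced by blood flow in endothelial cells and hold them in a quiescent, anticoagulant state, while Klf4, Klf6 and Klf15 also act in podocytes, the filter cells of the glomerulus. Klf5 belongs to epithelia, among them the urothelium and the collecting duct, and Klf6, Klf10 and Klf11 are early genes of injury and of transforming growth factor-beta signalling.

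Levels are given as FPKM, fragment counts scaled to transcript length and to the mapped fragments of the library, which can be compared between genes. Total estimated counts were 72149987 to 78711121 in the 12 Ctrl and PBS mice. In the FLX group they were 79061296 and 74093215 in replicates 1 and 2 and 48928823 to 52073640 in replicates 3 to 6, and this lower depth occurred in that group alone. Markers of the proximal tubule were abundant in every mouse, with a summed level of 662 to 1459 FPKM over 5 genes. PBS replicate 6 stood apart, with the lowest of these sums, 662 FPKM against 1195 or more in the other 17 mice, and with the highest sum of 6 neutrophil genes, 59.2 FPKM against 0.219 to 25.5. Most of that sum came from S100a9 and S100a8, at 32.8 and 22.1 FPKM. Of the others, Csf3r was at its lowest PBS value in this mouse, 0.181 FPKM, and Cxcr2 at its highest, 0.258. Results are therefore given over the 18 mice and also without this mouse.

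Promoter sequences of 8 members were matched by symbol in RefSeq (GRCm38.p6), in windows from 250 bases before to 50 bases after the start of the gene. Stretches of 4 promoters are printed because they carry the sequences tied to the clock, to cAMP and to the flow response. The start of each gene in RefSeq lies 20 bases before the end of the stretch. Capitals mark the E-box CACGTG, the short site TGACG of the cAMP response element and the MEF2 site, searched on both strands.
Klf15: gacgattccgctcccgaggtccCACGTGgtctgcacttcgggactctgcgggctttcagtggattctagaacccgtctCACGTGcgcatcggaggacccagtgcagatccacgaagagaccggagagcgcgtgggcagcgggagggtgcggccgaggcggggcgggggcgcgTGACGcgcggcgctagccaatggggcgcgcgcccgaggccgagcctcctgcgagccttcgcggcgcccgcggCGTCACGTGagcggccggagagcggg
Klf9: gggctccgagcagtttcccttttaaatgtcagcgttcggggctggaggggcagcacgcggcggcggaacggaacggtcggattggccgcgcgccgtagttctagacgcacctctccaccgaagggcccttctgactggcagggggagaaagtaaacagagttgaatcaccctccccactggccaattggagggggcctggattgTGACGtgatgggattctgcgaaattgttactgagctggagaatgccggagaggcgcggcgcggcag
Klf2: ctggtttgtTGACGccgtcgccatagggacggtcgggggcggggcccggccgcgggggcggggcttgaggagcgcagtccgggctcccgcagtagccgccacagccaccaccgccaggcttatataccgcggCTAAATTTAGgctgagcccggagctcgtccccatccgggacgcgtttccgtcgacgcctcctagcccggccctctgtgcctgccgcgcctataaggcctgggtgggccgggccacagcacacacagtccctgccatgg
Klf4: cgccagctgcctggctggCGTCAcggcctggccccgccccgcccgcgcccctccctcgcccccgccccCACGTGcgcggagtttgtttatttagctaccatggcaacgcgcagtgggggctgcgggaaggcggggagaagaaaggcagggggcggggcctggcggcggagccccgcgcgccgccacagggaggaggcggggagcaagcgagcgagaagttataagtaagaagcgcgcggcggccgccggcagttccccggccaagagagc
These stretches lie at chr6:90462326-90462595 on the plus strand for Klf15, chr19:23140976-23141245 on the plus strand for Klf9, chr8:72318812-72319081 on the plus strand for Klf2 and chr4:55532456-55532725 on the minus strand for Klf4.

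The window of Klf15 held 3 E-boxes, and those of Klf4, Klf6 and Klf11 held 1 each. At least 1 E-box was thus present in 4 of the 8 windows, against 7.17% of 32544 promoter windows of the same length. The short site TGACG was present in 6 of 8 windows, against 20.9%, and in Klf15 the copy nearest to the start overlapped an E-box. A MEF2 site was found in Klf2 alone among the 8, 118 bases before the start, against 1.86% of windows. The GC box GGGCGG was present in 7 of 8 windows, against 35.9%, and CACCC, the type of sequence bound by the family itself, in 5 of 8, against 57.7%. The full cAMP element TGACGTCA, the D-box TTATGNAA and the glucocorticoid receptor motif AGAACA had no match in any of the 8 windows, against 1.80%, 3.39% and 18.9% of windows. The 8 windows had 63.0% to 77.7% G and C, while the median of the 32544 windows was 53.0%. These matches describe letters in a window and were not tested as sites.

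Klf15 and Klf9 were the most abundant members in each group, and Klf5 was the least abundant. In the Ctrl group, Klf15 was at 25.3 ± 1.04 FPKM (SD, n = 6) and Klf9 at 22.0 ± 3.98, with overlapping ranges. Klf6 followed at 4.87 ± 0.565, Klf2 at 4.12 ± 1.40, Klf10 at 3.55 ± 0.752, Klf13 at 3.42 ± 0.429, Klf3 at 2.77 ± 0.483 and Klf11 at 2.59 ± 0.621 FPKM (SD, n = 6), and each of these neighbours in the order overlapped the next. Klf4, at 1.49 ± 0.191, lay below every value of Klf11, and Klf5, at 0.356 ± 0.176, lay below every value of Klf4. The order of the means changed in the middle, where Klf6 came next after Klf9 and Klf15 in the Ctrl and PBS groups and Klf2 did in the FLX group at 8.93 ± 1.13 FPKM (SD, n = 6). The ranges of Klf6 and Klf2 overlapped in each group. Summed over the 10 genes, the level was 70.6 ± 6.38 FPKM in Ctrl, 101 ± 14.8 in PBS and 86.2 ± 6.34 in FLX (SD, n = 6), and Klf9 and Klf15 together made up 56.1% to 74.8% of the sum in single mice.

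**Figure D1:**
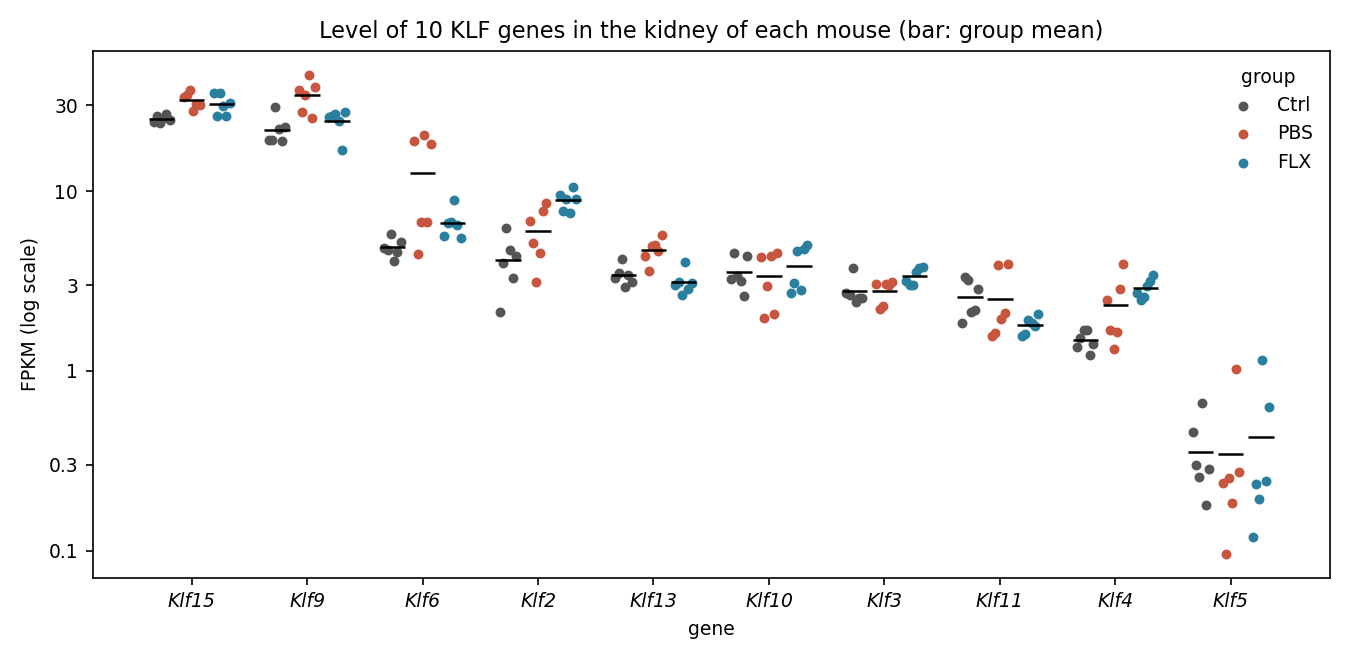
Level in FPKM on a log axis of each of the 10 KLF genes in each of 18 mice. Points are mice, coloured by group, and black bars are group means. Klf15 and Klf9 lie highest, and the PBS points of Klf6 fall into 3 mice near 20 and 3 mice under 7 FPKM.

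Fold changes were estimated on the counts with edgeR in 1 model of the 3 groups, and a gene was called at an adjusted p under 0.05. All 10 members were among 19946 genes that passed the filter on low counts. In PBS versus Ctrl, Klf6, Klf9, Klf13 and Klf15 were called higher, beside 2.45% of all genes called higher, and no member was called lower, beside 1.82% of all genes. In FLX versus PBS, Klf13 was called lower, beside 0.331%, and no member higher, beside 0.226%. In FLX versus Ctrl, Klf2 and Klf4 were called higher, beside 1.01%, and no member lower, beside 0.762%. The same members were called without PBS replicate 6. Since the genes were selected on these comparisons, nothing is read from the counts. Over the 10 members, the median log2 value was 0.40 in PBS versus Ctrl, -0.03 in FLX versus PBS and 0.17 in FLX versus Ctrl, beside medians of -0.0013, -0.01 and -0.0088 over the 19946 genes. When TMM scaling was replaced by upper-quartile scaling, the balance of called genes in PBS versus Ctrl went from 489 higher and 364 lower to 356 higher and 497 lower, and in FLX versus Ctrl from 202 and 152 to 145 and 206.

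Ranges of FPKM that did not overlap between groups were found for Klf15 in PBS versus Ctrl, beside 1.34% of genes with higher and 1.40% with lower ranges. For FLX versus Ctrl they were found for Klf2 and Klf4, beside 2.70% and 0.737%. In FLX versus PBS, no member had separate ranges, beside 1.74% and 0.301%. The comparisons share the PBS or the Ctrl mice, so that a member's fold changes in them are not independent of each other. In a bulk sample, fewer cells of a type and less RNA per cell cannot be told apart.

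**Figure D2:**
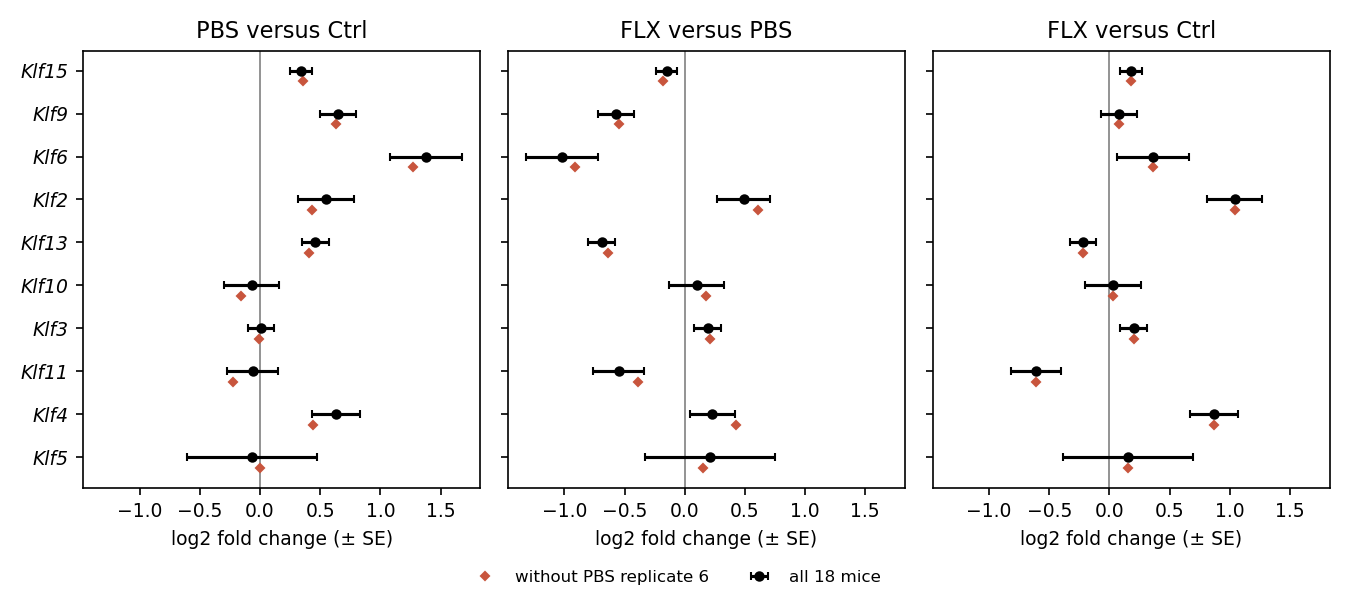
Log2 fold change of each KLF gene in the 3 comparisons, as black points with the standard error of the edgeR model over 18 mice. Red diamonds give the value without PBS replicate 6. In PBS versus Ctrl, Klf6 lies farthest to the right at 1.38, and in FLX versus Ctrl, Klf2 and Klf4 lie at 1.04 and 0.87.

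Among the members induced by glucocorticoids, Klf9 is a small repressor that also answers to thyroid hormone. Klf9 (ENSMUSG00000033863, GRCm38 as for all members, chromosome 19, 23141226 to 23168134) had a lowest value, median and highest value of 19.1, 20.8 and 29.5 FPKM in Ctrl, against 25.4, 35.5 and 44.5 in PBS and 16.9, 26 and 27.5 in FLX. Of the 6 PBS mice, 4 lay above every Ctrl mouse, while the FLX mice overlapped both other groups. In log2 fold change, it stood at 0.65 (1.57-fold) for PBS versus Ctrl (standard error 0.15), at -0.57 for FLX versus PBS (standard error 0.15) and at 0.08 for FLX versus Ctrl (standard error 0.15). In FLX versus PBS, Klf9 was called lower without PBS replicate 5 and with DESeq2.

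Klf15, a regulator of amino acid and glucose metabolism and of podocyte differentiation, was the member with the tightest Ctrl values. Klf15 (ENSMUSG00000030087, chromosome 6, 90462576 to 90475238) had a lowest value, median and highest value of 24.1, 25.3 and 26.8 FPKM in Ctrl, 28.1, 32.0 and 36.4 in PBS and 26.1, 30.2 and 35.3 in FLX. Every PBS mouse lay above every Ctrl mouse, and 4 of 6 FLX mice did. Expressed as log2 fold change, Klf15 lay at 0.34 (1.26-fold) for PBS versus Ctrl (standard error 0.09), at -0.15 for FLX versus PBS (standard error 0.09) and at 0.18 for FLX versus Ctrl (standard error 0.09). The call in PBS versus Ctrl was lost in 14 of the 18 fits that left out 1 mouse, those without PBS replicate 6 or FLX replicate 1, 3 or 5 being the exceptions. It was also lost with upper-quartile scaling, without the filter on low counts, in a model of these groups alone and with a block for replicate number. It was lost as well with FLX replicates 1 and 2 as the FLX group, a choice made after seeing the data. The call was kept with DESeq2 and limma.

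Klf13 is the nearest relative of Klf9 and is known as a regulator of the cytokine gene Ccl5 in T cells. Klf13 (ENSMUSG00000052040, chromosome 7, 63886351 to 63938915) had a lowest value, median and highest value of 2.95, 3.36 and 4.19 FPKM in Ctrl, 3.61, 4.80 and 5.72 in PBS and 2.63, 3.03 and 4.04 in FLX. Of the PBS mice, 5 of 6 lay above every Ctrl mouse, and 5 of 6 FLX mice lay below every PBS mouse. Its log2 fold change stood at 0.46 for PBS versus Ctrl (standard error 0.11), at -0.69 (1.61-fold lower) for FLX versus PBS (standard error 0.11) and at -0.22 for FLX versus Ctrl (standard error 0.11). The call of Klf13 in PBS versus Ctrl was lost with a block for replicate number. FLX replicates 1 and 2, the FLX mice of full depth, had 2.99 and 3.12 FPKM and also lay below the lowest PBS mouse. With these 2 as the FLX group, a choice made after seeing the data, Klf13 was no longer called in FLX versus PBS, where edgeR called 0 of all genes. Gm27252, an antisense gene over Klf13, was at 0 to 2.03 FPKM. The library protocol marks strand, but no source used here says whether the counting kept it, so that reads of this pair may not be fully separated.

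The programmes that share regulators with these members were counted beside them. Their lists were chosen with earlier results of these data known, so the counts are a description. Of all genes tested, 2.45% were called higher and 1.82% lower in PBS versus Ctrl. These shares were 0.226% and 0.331% in FLX versus PBS, and 1.01% and 0.762% in FLX versus Ctrl. Of 9 glucocorticoid-induced genes, among them Fkbp5, Sgk1 and Tsc22d3, 8 rose in PBS versus Ctrl (edgeR, adjusted over all genes tested), with a median of 1.71 in log2 units, beside 0.65 for Klf9 and 0.34 for Klf15. In FLX versus PBS, 1 of the 9, Mt2, fell, and the median was -1.08. Of 10 clock repressor and output genes, 1 rose in PBS versus Ctrl, the clock gene Per1, and the median was -0.09. The list held Dbp, Tef, Hlf, Nr1d1, Nr1d2, Ciart, Per1, Per2, Per3 and Bhlhe41. In FLX versus PBS, 5 of the 10 fell, with a median of -1.09, and in FLX versus Ctrl 6 of the 10 fell while 3 of the 9 glucocorticoid-induced genes rose. Of 4 activators and repressors of the clock, Nfil3 rose in PBS versus Ctrl, Arntl and Npas2 rose in FLX versus PBS, and these 3 rose in FLX versus Ctrl. Of 14 immediate early genes, Atf3 and Nr4a3 rose in PBS versus Ctrl, and none was called in the other comparisons (edgeR). Without PBS replicate 6 the counts were 8 of 9 glucocorticoid-induced genes in PBS versus Ctrl and 7 of 10 clock repressor and output genes in FLX versus PBS. In FLX versus Ctrl they were 5 of 9 and 7 of 10. Within groups, the levels of Klf9 and Klf15 from mouse to mouse were not shown to follow the mean of either list, as none of the 60 relations of a member with a list had an adjusted p of its r under 0.05 (permutation test).

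Klf6 showed the largest fold change of the 10 genes, and its PBS values were split. Klf6 is a tumour suppressor and early gene of tissue injury (ENSMUSG00000000078, chromosome 13, 5861482 to 5870394). It had a lowest value, median and highest value of 4.10, 4.77 and 5.75 FPKM in Ctrl and 5.46, 6.58 and 8.96 in FLX. In the PBS group the values were 19.0, 4.47, 6.78, 20.5, 6.76 and 18.2 FPKM in replicates 1 to 6. Replicates 1, 4 and 6 were thus at 18.2 FPKM or more, and replicate 2 lay within the Ctrl range. As a log2 fold change, PBS versus Ctrl was 1.38 (standard error 0.30), or 2.61-fold, and 1.27 without PBS replicate 6. It was -1.02 in FLX versus PBS (standard error 0.30) and 0.36 in FLX versus Ctrl (standard error 0.30). The call in PBS versus Ctrl was lost in a model of these groups alone and with a block for replicate number. In FLX versus PBS, Klf6 was called lower without PBS replicate 2 and with DESeq2. The 6 neutrophil genes summed to 8.96, 25.5 and 59.2 FPKM in PBS replicates 1, 4 and 6 and to 6.57, 15.1 and 8.12 FPKM in replicates 2, 3 and 5, against 1.29 to 3.18 FPKM in Ctrl and 0.219 to 4.77 in FLX. S100a8 and S100a9 made up most of the neutrophil sum in each PBS mouse. Of the 4 tested neutrophil genes, 3 were called higher in PBS versus Ctrl, beside 2.45% of all genes. Csf3r was not called, at a log2 fold change of 0.99 (edgeR, adjusted p = 0.0869), and its lowest PBS value was that of replicate 6. The mean of the 14 immediate early genes, as log2(FPKM + 0.1) minus the PBS mean, was 1.456, 0.942 and -0.16 in PBS replicates 1, 4 and 6. It was -1.308, -0.95 and 0.021 in replicates 2, 3 and 5. The part of either set of genes in the values of Klf6 was not tested.

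Klf10, first described as an early gene of transforming growth factor-beta and also under the circadian clock, was called in no comparison. Klf10 (ENSMUSG00000037465, chromosome 15, 38291463 to 38300706) had a lowest value, median and highest value of 2.60, 3.30 and 4.53 FPKM in Ctrl, 1.98, 3.64 and 4.52 in PBS and 2.70, 3.87 and 4.99 in FLX. The 3 groups overlapped, and in log2 fold change it stood at -0.07 for PBS versus Ctrl (standard error 0.23), at 0.10 for FLX versus PBS (standard error 0.23) and at 0.03 for FLX versus Ctrl (standard error 0.23). PBS replicates 1, 4 and 6 were the highest PBS mice for Klf10, as they were for Klf3, Klf6 and Klf9.

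Klf11, a close relative of Klf10, was lower on average in FLX. Klf11 (ENSMUSG00000020653, chromosome 12, 24651274 to 24662789) had a lowest value, median and highest value of 1.85, 2.52 and 3.33 FPKM in Ctrl, 1.57, 2.03 and 3.93 in PBS and 1.56, 1.81 and 2.08 in FLX. Its FLX values were close together, and the PBS values ran from below the Ctrl range to above it. Expressed as log2 fold change, it lay at -0.06 for PBS versus Ctrl (standard error 0.21), at -0.55 for FLX versus PBS (standard error 0.21) and at -0.61 for FLX versus Ctrl (standard error 0.21). In a model of the FLX and Ctrl groups alone Klf11 was called lower, and it was not called over the 3 groups.

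Klf2 and Klf4, the flow-responsive members of the endothelium, were highest in the FLX group. Klf2 (ENSMUSG00000055148, chromosome 8, 72319033 to 72321656) had a lowest value, median and highest value of 2.12, 4.17 and 6.28 FPKM in Ctrl, 3.14, 6.01 and 8.57 in PBS and 7.60, 9.03 and 10.6 in FLX. Every FLX mouse lay above every Ctrl mouse, 4 of 6 FLX mice lay above every PBS mouse, and 3 of 6 PBS mice lay above every Ctrl mouse. Its log2 fold change stood at 0.55 for PBS versus Ctrl (standard error 0.23), at 0.49 for FLX versus PBS (standard error 0.22) and at 1.04 (2.06-fold) for FLX versus Ctrl (standard error 0.23). The call in FLX versus Ctrl was lost without Ctrl replicate 1, 2 or 5 or FLX replicate 1, 5 or 6, and with a block for replicate number.

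Klf4, also a factor of podocytes and of smooth muscle under injury, was lower in level but similar in its pattern. Klf4 (ENSMUSG00000003032, chromosome 4, 55527143 to 55532466) had a lowest value, median and highest value of 1.23, 1.47 and 1.70 FPKM in Ctrl, 1.33, 2.09 and 3.92 in PBS and 2.47, 2.83 and 3.43 in FLX. The FLX mice lay above every Ctrl mouse and within the wide PBS range, whose highest value was that of PBS replicate 6. In log2 fold change, it stood at 0.63 for PBS versus Ctrl (standard error 0.20), at 0.23 for FLX versus PBS (standard error 0.19) and at 0.87 (1.82-fold) for FLX versus Ctrl (standard error 0.20). Without PBS replicate 6 the value was 0.44 in PBS versus Ctrl and 0.43 in FLX versus PBS. The call in FLX versus Ctrl was lost without Ctrl replicate 1, 2, 5 or 6 or FLX replicate 1, 2, 4, 5 or 6. It was also lost without the filter on low counts and with a block for replicate number. FLX replicates 1 and 2 had 9.54 and 7.75 FPKM of Klf2 and 2.70 and 2.47 FPKM of Klf4, above every Ctrl mouse, but with these 2 as the FLX group neither gene was called. In PBS versus Ctrl, Klf4 was called higher without PBS replicate 2 or 3 and with DESeq2.

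Klf2 and Klf4 also varied together from mouse to mouse once the group means were removed. In the PBS group both genes ranked the 6 mice in the same order, with replicate 6 highest and replicate 3 lowest. Over the 18 mice, log2(FPKM + 0.1) centred on group means gave a Pearson's r of 0.776 (permutation test within groups, two-sided, adjusted p = 0.0207) and a Spearman's rho of 0.822 (permutation test, adjusted p = 0.0351), with p values adjusted over the 45 pairs of members. Leaving out the 2 mice farthest from the median of Klf2 gave an r of 0.80. Without PBS replicate 6 the r was 0.758 and the adjusted p was 0.0598 by the permutation test. No other pair of the 45 passed the threshold by r or by rho. Klf3, Klf6, Klf10 and Klf11 had groups whose mice fell into separate clusters, so no r is given for pairs with them. Each point takes both genes from 1 library, and the 4 mice of lower depth belong to 1 group.

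Marker genes of cells known to express this pair are given beside it, endothelial cells first. The sum of 6 endothelial genes was 24.7 to 37.0 FPKM in Ctrl, 22.6 to 56.5 in PBS, with the highest value in replicate 6, and 32.8 to 50.0 in FLX. None of the 6 was called in PBS versus Ctrl, and in FLX versus Ctrl the 6 log2 fold changes were positive with a median of 0.51, against 1.04 for Klf2 and 0.87 for Klf4. Tek, the angiopoietin receptor, was the 1 gene of the 6 called there, with a log2 fold change of 0.57 (edgeR, adjusted p = 0.0184), which did not pass when Ctrl replicate 1, Ctrl replicate 5 or FLX replicate 5 was left out. Within groups, the mean of the 6 genes had an r of 0.784 with Klf4 (permutation test, adjusted p = 0.133) and of 0.646 with Klf2 (permutation test, adjusted p = 0.31), adjusted over 60 relations, and a rho of 0.771 and 0.686 (permutation test, adjusted p = 0.036 and 0.157). Without PBS replicate 6 both r values had an adjusted p of 0.314 by the permutation test. Both rho values then had an adjusted p of 0.448 (permutation test). The rho of Klf4 with the endothelial mean also did not pass at log2(FPKM + 1) (permutation test, adjusted p = 0.0546). With TMM scaling of log2 counts its adjusted p was 0.16 (permutation test). With a block for replicate number this rho passed (permutation test, adjusted p = 0.0273).

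Summed markers of smooth muscle, stroma and podocytes were also higher on average in both defeated groups. The sum of 3 smooth muscle genes was 12.3 to 30.2 FPKM in Ctrl, 24.7 to 64.7 in PBS and 25.7 to 52.3 in FLX. That of 4 stromal genes, Acta2, Col1a1, Pdgfra and Pdgfrb, was 19.8 to 28.5, 27.1 to 77.1 and 25.2 to 62.7 FPKM. Acta2 made up the largest part, with medians of 12.6 FPKM in Ctrl, 26.9 in PBS and 26.7 in FLX. In the same order, the medians were 2.02, 3.27 and 2.36 for Col1a1 and 2.0, 2.27 and 2.6 for Pdgfra. For Pdgfrb they were 6.1, 5.68 and 7.74 FPKM, and Col1a1, Pdgfra and Pdgfrb were not called in any comparison. Acta2, the smooth muscle actin also found in activated stroma, was called in PBS versus Ctrl (log2 fold change 1.09, edgeR, adjusted p = 0.0203) and in FLX versus Ctrl (1.12, adjusted p = 0.0323). The first call of Acta2 was lost without Ctrl replicate 5 and the second without Ctrl replicate 1, 2, 5 or 6 or FLX replicate 2, 4 or 5. Tagln, another smooth muscle gene, was called in PBS versus Ctrl (0.96, edgeR, adjusted p = 0.041), which did not pass when any one of PBS replicates 1 and 6 and Ctrl replicates 1, 2, 5 and 6 was left out. The 4 podocyte genes summed to 36.6 to 49.6 FPKM in Ctrl, 48.0 to 83.0 in PBS and 43.4 to 70.5 in FLX, with medians of 0.42 and 0.27 on the log2 scale against Ctrl, and none was called. The highest of these sums in the PBS group were those of replicate 6. The part of these cell types and of endothelial content in the values of Klf2 and Klf4 was not tested.

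**Figure D3:**
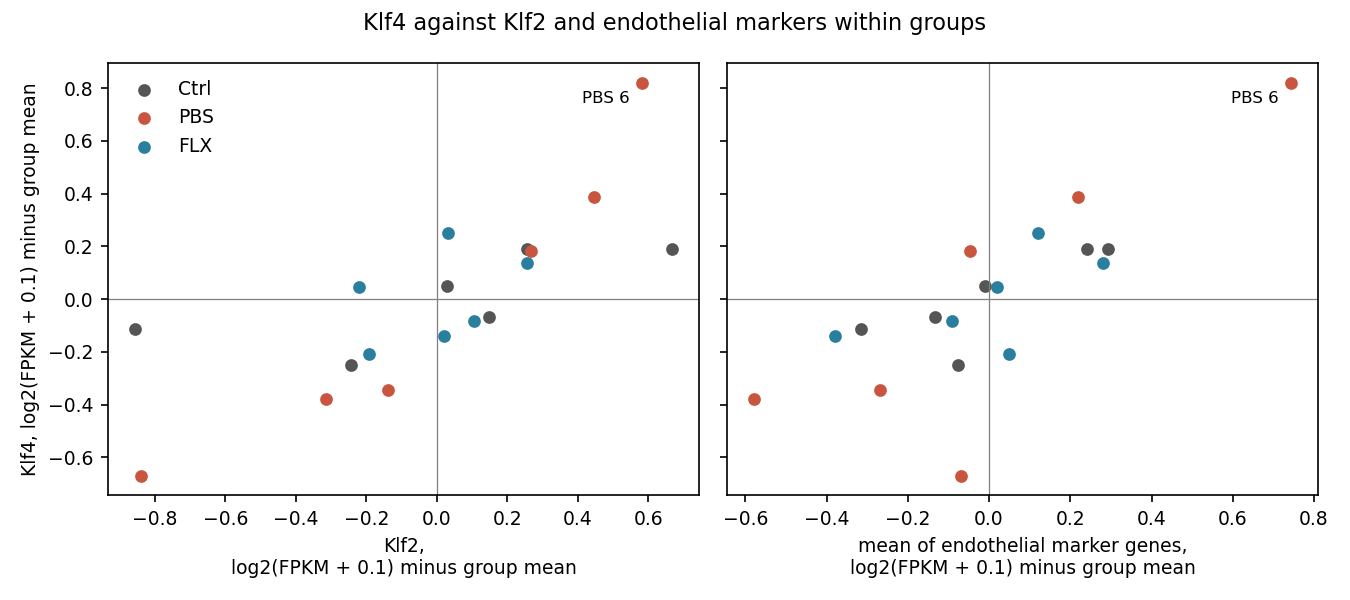
Klf4 against Klf2 (left) and against the mean of 6 endothelial marker genes (right), each as log2(FPKM + 0.1) minus the mean of the mouse's group. Points are 18 mice, coloured by group, and PBS replicate 6 is labelled. Mice high in Klf2 tend to be high in Klf4, with an r of 0.776.

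Klf3 is a repressor that recruits C-terminal binding protein, and it had the smallest fold change in PBS versus Ctrl. Klf3 (ENSMUSG00000029178, chromosome 5, 64803388 to 64832901) had a lowest value, median and highest value of 2.43, 2.60 and 3.74 FPKM in Ctrl, 2.21, 3.02 and 3.11 in PBS and 2.99, 3.36 and 3.79 in FLX. Of the 6 FLX mice, 4 lay above every PBS mouse, and the groups overlapped. Expressed as log2 fold change, it lay at 0.01 for PBS versus Ctrl (standard error 0.11), at 0.19 for FLX versus PBS (standard error 0.11) and at 0.20 for FLX versus Ctrl (standard error 0.11). Gm20033, antisense to Klf3, was at 0.0301 to 0.847 FPKM, with the same limit on strand as for Klf13.

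Klf5 was scarce in the whole kidney and varied more from mouse to mouse than between groups. Klf5 (ENSMUSG00000005148, chromosome 14, 99298691 to 99315036) had a lowest value, median and highest value of 0.179, 0.291 and 0.663 FPKM in Ctrl, 0.096, 0.246 and 1.02 in PBS and 0.119, 0.239 and 1.15 in FLX. The SD was 98.0% of the mean in PBS and 92.4% in FLX, and its log2 values were -0.07 in PBS versus Ctrl, 0.21 in FLX versus PBS and 0.15 in FLX versus Ctrl, each with a standard error of 0.54. These values turned with single mice. Without PBS replicate 5 they were -0.76 in PBS versus Ctrl and 0.91 in FLX versus PBS, without FLX replicate 4 they were -0.34 in FLX versus PBS and -0.40 in FLX versus Ctrl, and without Ctrl replicate 4 they were 0.20 in PBS versus Ctrl and 0.41 in FLX versus Ctrl. The 3 mice with the highest Klf5 were FLX replicate 4, PBS replicate 5 and Ctrl replicate 4, at 1.15, 1.02 and 0.663 FPKM. These were also the 3 mice with the highest sum of the uroplakin genes Upk1b, Upk2 and Upk3a, markers of the urothelium, at 97.8, 30.1 and 20 FPKM. The sum ranged from 0.208 to 20 FPKM in Ctrl, 0.448 to 30.1 in PBS and 0.862 to 97.8 in FLX, and none of the 3 genes was called in any comparison. The part of urothelium in the sampled tissue was not tested.

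**Figure D4:**
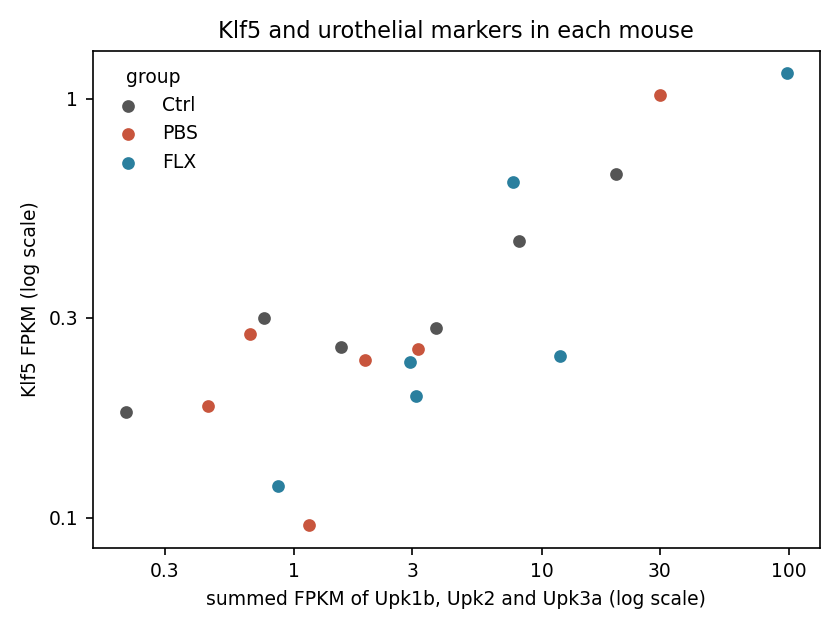
Klf5 in FPKM against the summed FPKM of Upk1b, Upk2 and Upk3a, both on log axes. Points are 18 mice, coloured by group. The 3 mice highest in Klf5, from 0.663 to 1.15 FPKM, are the 3 mice highest in uroplakins.

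The members differed in how many mice left the Ctrl range. Over the 12 defeated mice of the PBS and FLX groups together, 10 had more Klf15 than every Ctrl mouse. This number was 9 for each of Klf2, Klf4 and Klf6, 5 for Klf13, 4 for Klf9, 3 for Klf10 and 2 for each of Klf3, Klf5 and Klf11. Klf11 was the member with most defeated mice below every Ctrl mouse, 5 of 12. The FLX mice were above the Ctrl range for Klf2 and Klf4 in 6 of 6, while for Klf9, Klf11 and Klf13 none was. Of all genes, 2.70% had every FLX mouse above every Ctrl mouse and 0.737% had every FLX mouse below. Shares for the other counts of mice were not computed. FPKM carries no TMM scaling, and with limma on log2(FPKM + 0.1) the median over all genes was 0.064 in FLX versus Ctrl.

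**Figure D5:**
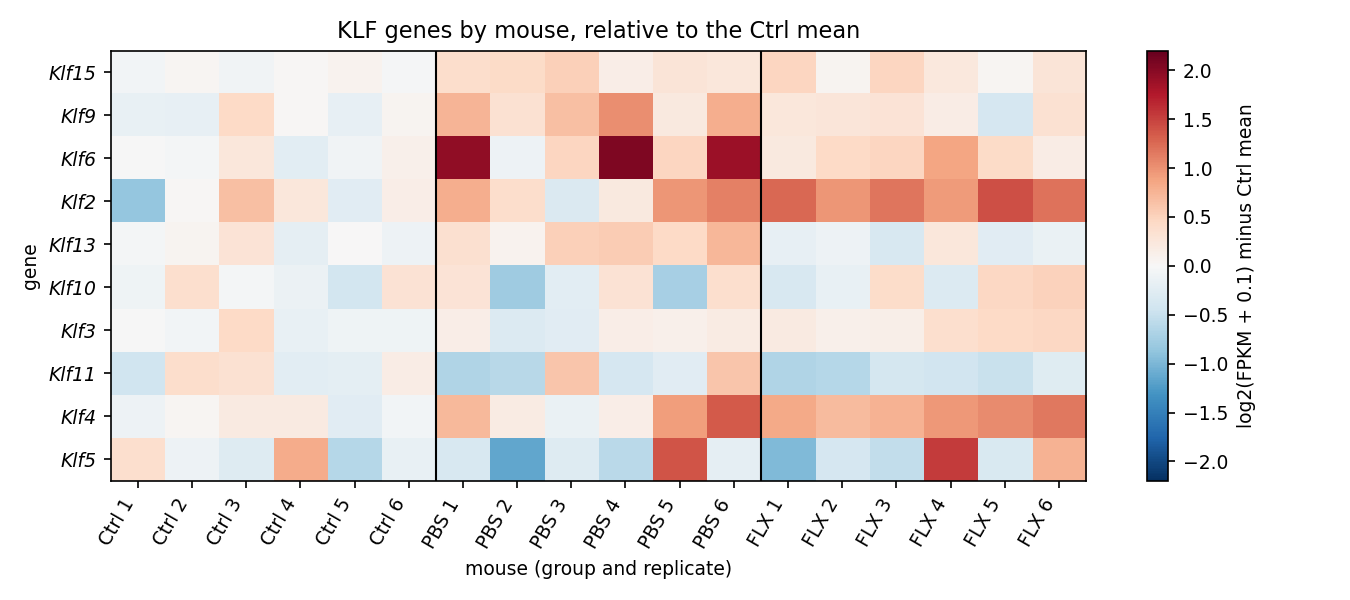
Level of the 10 KLF genes in each of 18 mice as log2(FPKM + 0.1) minus the Ctrl mean, red for higher and blue for lower. Columns are mice by group and replicate, separated by black lines. Klf6 is dark red in PBS replicates 1, 4 and 6, and Klf2 and Klf4 are red across the FLX group.

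The other genes of the family and the related Sp genes showed few changes. Of 7 further KLF genes, 5 were tested, and none was called in any comparison (edgeR, adjusted p of at least 0.0903, the lowest being that of Klf1 in PBS versus Ctrl). With 1 mouse left out, the adjusted p of Klf1 fell to as low as 0.0263 in PBS versus Ctrl and 0.0382 in FLX versus Ctrl (edgeR). Among the alternative fits it also fell under 0.05 in both comparisons. Of 9 Sp genes, which bind the same GC-rich sequences, 5 were tested. Sp5, a target of Wnt signalling, went from 6.61 ± 0.861 to 4.47 ± 0.755 FPKM (SD, n = 6) in PBS versus Ctrl, a log2 fold change of -0.57 (standard error 0.14, edgeR, adjusted p = 0.023). The call of Sp5 did not pass when Ctrl replicate 1, 2 or 5 was left out, where the adjusted p reached 0.0667 (edgeR), and was present without PBS replicate 6 (adjusted p = 0.0426). None of 20 partners and regulators of KLF proteins, among them the corepressors Ctbp1 and Sin3a, the ligases Wwp1 and Fbxw7 and the kinase Mapk7 upstream of Klf2, was called in any of the 3 comparisons.

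Genes known as targets of KLF factors were counted next. The list was chosen with earlier results of these data known. Of 19 such genes, 18 were tested, and 4 rose and none fell in PBS versus Ctrl, beside 2.45% and 1.82% of all genes. Their median log2 fold change was 0.38, beside -0.0013 over all genes. For the other comparisons, the shares of all genes are those given with the programmes above. Cdkn1a, a cell cycle inhibitor and target of Klf4 and Klf6, which is also in the glucocorticoid list, rose from 2.14 ± 0.698 to 14 ± 10.4 FPKM (SD, n = 6), with a log2 fold change of 2.68 (standard error 0.35, edgeR, adjusted p = 0.000502). S1pr1, the sphingosine-1-phosphate receptor induced by Klf2 in endothelium and lymphocytes, rose from 2.91 ± 0.475 to 6.41 ± 2.46 FPKM (SD, n = 6), or 1.13 on the log2 scale (standard error 0.19, edgeR, adjusted p = 0.00306). Every PBS mouse, from 4.15 to 9.60 FPKM, lay above every Ctrl mouse, from 2.09 to 3.39.

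Thrombomodulin (Thbd), the anticoagulant target of Klf2 and Klf4, also rose by 1.13 (standard error 0.25, edgeR, adjusted p = 0.0156), and by 0.73 without PBS replicate 6, the mouse with the highest PBS value, 14.3 FPKM. Pck1, the gluconeogenic enzyme under Klf15 and glucocorticoids, rose from 349 ± 50.4 to 648 ± 154 FPKM (SD, n = 6), or 0.88 on the log2 scale (standard error 0.16, edgeR, adjusted p = 0.00586). Pck1 was also the 1 target that fell in FLX versus PBS, by 0.92 on the log2 scale (standard error 0.16, edgeR, adjusted p = 0.0164) to 364 ± 89.2 FPKM (SD, n = 6). The endothelial target Nos3 was not called, at a log2 value of 0.76 for PBS versus Ctrl (standard error 0.35), and at 0.20 without PBS replicate 6. The same 4 targets rose without PBS replicate 6.

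In FLX versus Ctrl, S1pr1 rose, by 0.78 on the log2 scale (standard error 0.19, edgeR, adjusted p = 0.042), to 5.32 ± 0.806 FPKM (SD, n = 6). It no longer passed when any one of Ctrl replicates 1, 2, 4, 5 and 6, FLX replicates 1, 2, 4, 5 and 6 or PBS replicate 1 was left out, where the adjusted p reached 0.101 (edgeR). Thbd, at 5.56 ± 1.05 FPKM (SD, n = 6) in FLX, stood at 0.89 on the log2 scale (standard error 0.25, edgeR, adjusted p = 0.0703), and Cdkn1a stood at 1.29 (standard error 0.33, edgeR, adjusted p = 0.0537). Without PBS replicate 6, these 3 targets were called in FLX versus Ctrl, with adjusted p values of 0.0191 for S1pr1, 0.00159 for Thbd and 0.00733 for Cdkn1a (edgeR).

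The genes whose level followed each member most closely within groups were ranked by Pearson's r of centred log2(FPKM + 0.1) over 18 mice, among 12126 genes with a mean of at least 1 FPKM. This ranking is a description of the highest of many values. Nearest to Klf2 were Ube2o, Zfpm1 and Ets1 (r = 0.842, 0.838 and 0.829), and nearest to Klf4 were the basement membrane gene Lamb2, Suox and Fam129b (r = 0.931, 0.90 and 0.869). Nearest to Klf5 were Rab15, the uroplakin Upk1b and Gata3 (r = 0.947, 0.899 and 0.895).

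Nearest to Klf9 were Sgms2, Gmeb2 and Nasp (r = 0.919, 0.874 and 0.866). For Klf13 they were Wdr7, Mtmr10 and Zdhhc20 (r = 0.871, 0.859 and 0.854), of which Mtmr10 lies on chromosome 7 like Klf13. For Klf15 they were Limd2, Fam98c and the autophagy gene Gabarapl1 (r = 0.814, 0.807 and 0.806). For the members with clustered values the genes are named without r: Mcl1, Rnd3 and Myc for Klf6, Brd1, Setd5 and Ell2 for Klf3, Arf6, Gm10252 and Gm44202 for Klf10, and Zfp956, Slc7a6os and Zfp949 for Klf11. Mcl1, a survival gene of the Bcl2 family, and Myc are short-lived transcripts, and Mcl1 was at 23.6 to 30.5 FPKM in Ctrl, 29.7 to 57.3 in PBS and 30.4 to 36.6 in FLX.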

How the data were processed

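Per the labels and the study's methods, libraries were made from poly(A) RNA. The authors used fastp, HISAT-3N, GRCm38 and StringTie, while the submitters' processing notes list cutadapt 1.9, HISAT2 2.0.4, UMI-tools, StringTie 1.3.4d, DESeq2 and edgeR. The authors deposited FPKM values and whole-number estimated counts per gene and mouse. No source used here names the counting tool. The authors deleted 1 PBS mouse that their text does not name, so 6 entered here.

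Counts were fitted with edgeR 4.0.16 in R 4.3.3 (quasi-likelihood test, two-sided, TMM, filterByExpr, 1 model of 3 groups) and p values adjusted by Benjamini-Hochberg over 19946 genes. Alternatives used limma 3.58.1 on log2(FPKM + 0.1) and DESeq2 1.42.0. Correlations used 100000 permutations within groups, and no r was given where the widest gap within a group, with at least 2 mice on each side, exceeded 60% of its range. The scripts were tested on simulated data. Members and lists were chosen with earlier results of these data known. Of the other lists, genes with an adjusted p under 0.05 were named, at most 3 per list and comparison by fold change, and the 3 genes most like each member. Nos3, Klf1, Tek, Acta2, Tagln, Pck1 in PBS versus Ctrl, Thbd and Cdkn1a in FLX versus Ctrl, the named partners and the named clock, glucocorticoid and immediate early genes were named after their values were seen. The same holds for the other stromal genes.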

Additional observations from a re-analysis of the deposited data

Results flagged for a closer look

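Of 30 sets of 6 values, 10 members in 3 groups, 6 held a mouse far from the other 5, by Dixon's criterion at the 95% level. Chance flags about 1 in 20 such groups. Ctrl replicate 3 was high for Klf3, at 3.74 FPKM against 2.43 to 2.73, and for Klf9, at 29.5 FPKM against 19.1 to 22.8. FLX replicate 4 was high for Klf6, at 8.96 FPKM against 5.46 to 6.73, and for Klf13, at 4.04 FPKM against 2.63 to 3.12. PBS replicate 5 was high for Klf5, at 1.02 FPKM against 0.096 to 0.275. FLX replicate 5 was low for Klf9, at 16.9 FPKM against 24.5 to 27.5.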

How the results depend on the processing

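The directions of the called members were the same under each alternative run. Of the members' alternative fold changes, 835 moved by less than the spread between mice and 5 by more: Klf5 and Klf15 in both FLX comparisons with fewer FLX mice, and Klf13 in FLX versus PBS with limma at a pseudocount of 1. The cause of the changes below was not tested. In PBS versus Ctrl, 853 genes were called, and 1662 with DESeq2, 343 in a model of the compared groups alone, 278 with the 1 FLX mouse whose depth lay within the range of the others and 486 with the 2 FLX mice at or above the lowest of the others, a choice made after seeing the data. Of 4 members called, 2 were left in the model of the compared groups and 1 with the 1 FLX mouse. Of the other lists, 5 genes were called and 8 with DESeq2. In FLX versus PBS, 111 genes were called, and 561 with DESeq2, 255, 262 and 237 with limma at pseudocounts of 0.1, 1 and 0.01, 69 without a filter and 10 in the model of the compared groups. With 1 FLX mouse or 2, edgeR called 0 genes and 0 members there, with 315 higher and 404 lower at an unadjusted p under 0.05 for 1 mouse and 507 and 758 for 2, where the lone mouse is assumed to vary like the other groups. DESeq2 was not run on these subsets. Of members 1 was called, and 3 with DESeq2 (Klf6, Klf9 and Klf13). Of the lists 1 gene was called and 2 with DESeq2. In FLX versus Ctrl, 354 genes were called, and 1082 with DESeq2, 716, 735 and 692 with limma, 162 without a filter, 717 in the model of the compared groups, 0 with 1 FLX mouse (398 higher and 536 lower at an unadjusted p under 0.05) and 2 with 2. Of 2 members called, 1 was left without a filter and 0 with 1 or 2 FLX mice. Of the lists 1 gene was called and 4 with DESeq2. With limma at a pseudocount of 0.1 the split was 199 higher and 56 lower in FLX versus PBS, against 45 and 66, and 576 and 140 in FLX versus Ctrl, against 202 and 152.

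Leaving out 1 mouse gave 432 to 1724 genes in PBS versus Ctrl, 33 to 192 in FLX versus PBS and 68 to 2103 in FLX versus Ctrl, with 3 to 4, 1 to 2 and 0 to 2 members and 4 to 9, 1 to 2 and 0 to 5 list genes. The highest number of genes in each comparison came without Ctrl replicate 3. Without PBS replicate 6 the numbers were 772, 147 and 744 genes. Without PBS replicate 6 the r of Klf2 with Klf4 was 0.758 and 0 pairs passed.

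Equal replicate numbers did not pair the mice, as 2 of 18 correlations of their deviations exceeded 0.1. With a replicate block, 539, 48 and 99 genes and 1 (Klf9), 1 (Klf13) and 0 members were called in PBS versus Ctrl, FLX versus PBS and FLX versus Ctrl, and 0 list genes in FLX versus Ctrl. The r of Klf2 with Klf4 was 0.788 with the block, with 0 pairs and 1 relation with a list (Klf4 with the endothelial genes) past the threshold.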
